A study of Macaca mulatta with 11 samples.

Results

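The genes of sterol and fatty acid synthesis were followed with the regulators and carriers that set cellular sterol supply. The cells were mesenchymal stem cells cultured from the bone marrow of fetal, newborn, infant and adult rhesus monkeys (Macaca mulatta). A list of 30 genes defined the members, and a probe set was taken when its annotated gene symbol was, or included, one of them. Of the 30 listed genes, 29 had a probe set, with 58 probe sets among the 22215 of the array. The squalene synthase gene FDFT1 was not analysed here. For 27 members 53 probe sets carried that gene's symbol alone, 16 of these members in sterol synthesis, 5 among regulators and transport and 6 in fatty acid synthesis. CYP51A1 and FADS1 were read only by probe sets that also carry the symbol of another gene (LRRD1 for CYP51A1, MIR1908 for FADS1), 2 and 3 in number, and their values are given apart.

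The 11 cultures, adherent marrow stromal cells with no genetic change or treatment given in the labels, were hybridised to 1 array each. The titles gave 4 fetal, 4 infant and 3 adult arrays. Fetal arrays 1 and 2 came from gestation day 120, and arrays 3 and 4, although titled fetal, from newborns. Infant donors were 6, 6, 3 and 5 months old for arrays 1 to 4, and adult donors 7, 7 and 8 years old for arrays 1 to 3. Marrow was obtained by flushing long bones at the fetal and newborn ages and by aspiration in infants and adults, so that age and the way of collection cannot be told apart between fetal arrays and the others. All cells were grown in medium with fetal bovine serum and collected at passage 2 before confluence. Whether the cultures of an age group came from separate animals is not in the labels, and p-values then reflect only the spread from culture to culture. The question was how the age of the donor relates to gene expression in these cells.

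As background, cells build cholesterol from acetyl-CoA. The early enzymes make mevalonate and turn it into isoprenoid units, squalene and then lanosterol, and the late enzymes trim lanosterol to cholesterol. Fatty acid synthesis starts from the same acetyl-CoA, and its products are desaturated and built into membranes and triglycerides. SREBF2 and SREBF1 encode membrane-bound transcription factors that switch on sterol and fatty acid genes when they are released. SCAP escorts them out of the endoplasmic reticulum, and INSIG proteins hold SCAP back when sterol is plentiful. Marrow stromal cells can form fat cells, which make and store much lipid.

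Values are log2 of the deposited intensity of a probe set. A gene is given by its single-symbol probe set with the highest mean over all arrays, and levels are not compared between genes, since probe sets differ in how brightly they read. Mean levels of 1 of the 27 members, SC5D, lay below the median of all probe sets, 7.38. Correlations between arrays lay between 0.928 and 0.983. The first principal component, with 23.1% of the variance, set adult arrays 1 and 2 and infant arrays 1 and 2, at scores of -20.5 to -16.1, apart from the other 7 arrays, at 6.70 to 19.5. Without those 4 arrays the adult group is adult array 3 alone and the infant group is infant arrays 3 and 4, so that each adult value given without them is that of 1 array.

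No member passed the test across all probe sets in any comparison between the age groups. With limma and Benjamini-Hochberg adjustment over 22215 probe sets, 0 of the 53 member probe sets were called between adult and fetal arrays, where 0.131% of all probe sets were called. The count was also 0 of 53 between adult and infant arrays, against 0.018% of all, and 0 of 53 between infant and fetal arrays, where 0% of all probe sets were called. The F test over the 3 groups called 0 members and 0.036% of all probe sets, and at an unadjusted p under 0.05 it passed 9 of 53 member probe sets, against 8.01% of all. At an unadjusted p under 0.05, 5 of 53 member probe sets passed between adult and fetal arrays, against 8.96% of all, with 1 higher in adults (4.12% of all) and 4 lower (4.83% of all). Between adult and infant arrays 4 of 53 passed, against 6.19% of all, and all 4 were higher in adults, against 3.79% of all probe sets passing in that direction. Between infant and fetal arrays 10 of 53, or 18.9%, passed, against 6.87% of all, and all 10 were lower in infants, against 4.55% of all probe sets passing in that direction. The median standard error of a member's log2 difference was 0.15 between adult and fetal and 0.14 between infant and fetal arrays.

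The common pattern of the members was a low infant mean. In 19 of 27 members, or 70.4%, the infant mean was the lowest of the 3 group means, against 35.9% of all 11963 genes, and in 0 of 27 it was the highest, against 26.6% of all genes. The fetal mean was the highest in 18 members, against 36.1% of all genes, and the adult mean in 9, against 37.4%. These shares are not given for the genes above the median level alone, where all members but SC5D lay. The infant mean was the lowest in 13 of 16 sterol synthesis genes, 2 of 5 regulators and 4 of 6 fatty acid genes. Leaving out each array in turn kept this count between 17 and 22, and without the 4 arrays that stood apart, with adult array 3 as the whole adult group, it was 20. A contrast of the infant mean against the average of the fetal and adult means was added after the data were seen. It was negative in 24 of 27 members, against 56.6% of all genes and 60.4% of the genes above the median level. It called 0 of 53 member probe sets, as it called 0% of all (smallest adjusted p of a member 0.885, limma). In that contrast SCD stood at -0.48, EBP at -0.46, NSDHL at -0.44, ACLY at -0.42 and FASN at -0.40.

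**Figure D1:**
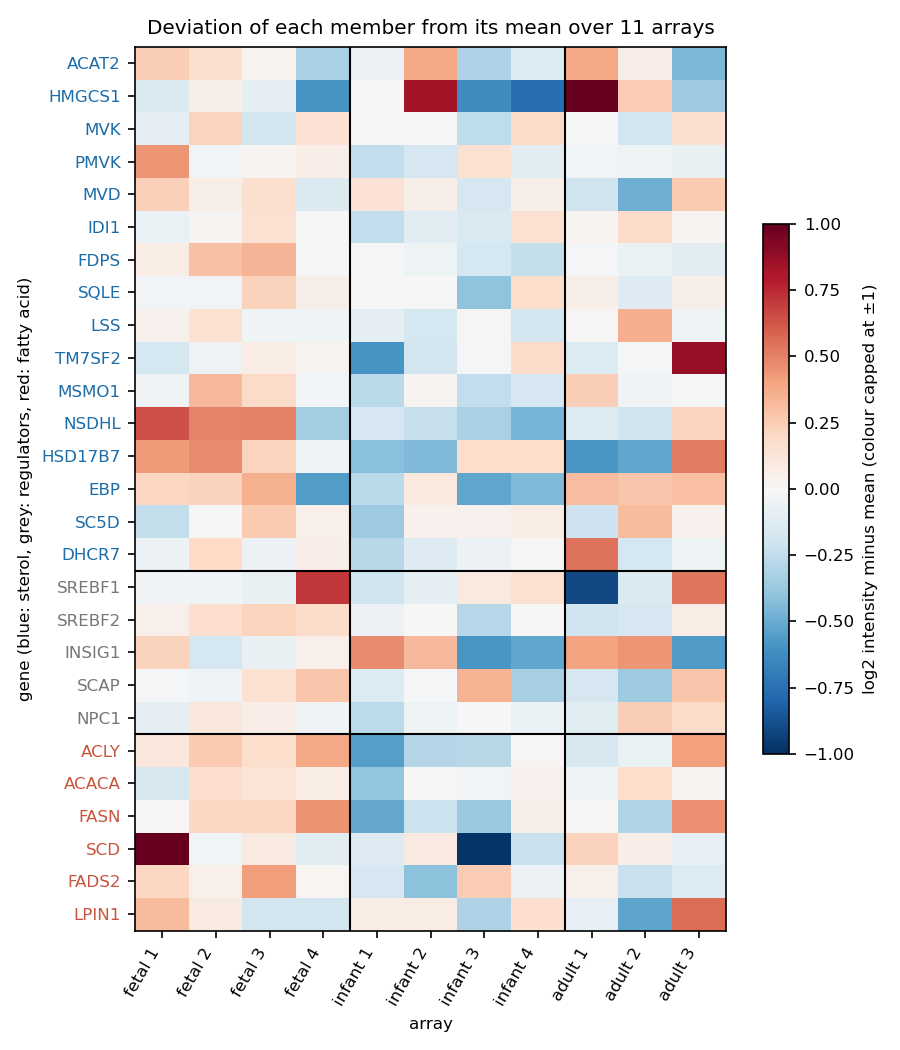
Each cell is a member's log2 intensity in 1 array minus its mean over the 11 arrays, with colour capped at 1 log2 unit in either direction, and rows grouped by branch. Blue cells lie below that mean. Of 27 members, 5, 11, 8 and 14 lay above their own mean in infant arrays 1 to 4. In order of array, the counts were 15, 19, 20 and 14 in fetal and 13, 10 and 17 in adult arrays. Fetal array 4 differs from the other fetal arrays in NSDHL and EBP (blue) and SREBF1 (red).

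Among the early enzymes of sterol synthesis, HMGCS1, the cytosolic synthase that joins acetyl-CoA and acetoacetyl-CoA, had the widest spread. It read 8.03, 8.24, 8.09 and 7.59 in fetal arrays 1 to 4, 8.17, 9.01, 7.56 and 7.42 in infant arrays 1 to 4 and 9.60, 8.43 and 7.82 in adult arrays 1 to 3. All groups overlapped, and adult array 1 and infant array 2 were the highest. The adult minus fetal difference was 0.63 (SE 0.39, 95% interval -0.20 to 1.46, limma adjusted p = 0.688). It ranged from 0.14 without adult array 1 to 1.03 without adult array 3, and was -0.17 without the 4 arrays that stood apart. A second probe set of HMGCS1 went the other way, with 7.86, 7.96 and 7.48 in adult arrays against 8.46, 8.39, 8.66 and 7.86 in fetal arrays. Its difference was -0.58 (SE 0.18, adjusted p = 0.289 with limma), so that the array gave no single direction for this gene.

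None of the other enzymes from acetyl-CoA to lanosterol was called between the age groups. ACAT2, a thiolase that condenses acetyl-CoA, and MVK, mevalonate kinase, had group means within 0.1 of each other, 7.63 to 7.69 and 9.38 to 9.42. FDPS, farnesyl diphosphate synthase, averaged 9.61 ± 0.17 in fetal (SD, n = 4), 9.32 ± 0.10 in infant (SD, n = 4) and 9.37 ± 0.05 in adult arrays (SD, n = 3). Its infant minus fetal difference was -0.29 (95% interval -0.51 to -0.07, limma adjusted p = 0.616) and its adult minus fetal difference -0.24 (adjusted p = 0.541). PMVK and MVD, which phosphorylate and decarboxylate mevalonate intermediates, and SQLE, squalene epoxidase, and LSS, lanosterol synthase, had infant minus fetal values between -0.22 and -0.05. For IDI1, isopentenyl diphosphate isomerase, 1 of its 2 probe sets kept all adult above all infant arrays (0.30) and all infant below all fetal arrays (-0.15). Its probe sets are of a design in which probes may also match near-identical sequences, so its values are uncertain.

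The late enzymes work on lanosterol and its products. NSDHL, a dehydrogenase that acts in removing methyl groups from the sterol ring, read 8.65, 8.49, 8.50 and 7.65 in fetal arrays 1 to 4, 7.83, 7.77, 7.67 and 7.54 in infant arrays 1 to 4 and 7.86, 7.80 and 8.22 in adult arrays 1 to 3. Fetal array 4, from a newborn, lay within the infant range, and the other 3 fetal arrays lay above every infant and adult array. The infant minus fetal difference was -0.62 (SE 0.18, 95% interval -1.01 to -0.23, limma adjusted p = 0.538). Without fetal array 4 it was -0.84 and passed the test (adjusted p = 0.0236 with limma). That was the 1 member called in any fit that left out an array. Over the whole table, infant minus fetal fits without 1 array called 0 to 21 probe sets. A second NSDHL probe set, with a mean of 7.08, gave an infant minus fetal difference of -0.09 (adjusted p = 0.903 with limma).

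EBP, the sterol isomerase also known as emopamil binding protein, read 9.66, 9.67, 9.80 and 8.88 in fetal, 9.17, 9.54, 8.92 and 9.00 in infant and 9.75, 9.72 and 9.74 in adult arrays. The 3 adult arrays were nearly equal and lay above all 4 infant arrays, while fetal array 4 was the lowest of all arrays. The adult minus infant difference was 0.58 (SE 0.20, 95% interval 0.16 to 1.00, limma adjusted p = 0.641), and infant minus fetal was -0.35 (adjusted p = 0.761). Its 2 other probe sets gave 0.25 and 0.27 for adult minus infant, and 0.03 and 0.13 for infant minus fetal. The higher adult than infant reading was thus shared by all 3 probe sets and the lower infant than fetal reading was seen in 1 of them.

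TM7SF2, a sterol reductase, read 7.59, 7.71, 7.84 and 7.79 in fetal, 7.17, 7.58, 7.75 and 7.96 in infant and 7.62, 7.75 and 8.63 in adult arrays. Adult array 3 alone stood out. The adult minus infant difference was 0.39 (SE 0.22, limma adjusted p = 0.827) and 0.07 without that array. HSD17B7, a sterol ketoreductase, read 9.32, 9.37, 9.11 and 8.85 in fetal, 8.48, 8.45, 9.07 and 9.07 in infant and 8.31, 8.37 and 9.42 in adult arrays. The low readings were those of infant arrays 1 and 2 and adult arrays 1 and 2. The adult minus fetal difference of -0.47 (SE 0.25, limma adjusted p = 0.631) was 0.25 without those 4 arrays, and its single probe set may also match near-identical sequences.

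MSMO1, a methylsterol monooxygenase, averaged 7.75 ± 0.18 in fetal (SD, n = 4), 7.47 ± 0.13 in infant (SD, n = 4) and 7.70 ± 0.16 in adult arrays (SD, n = 3), with infant minus fetal at -0.28 (limma adjusted p = 0.666). SC5D, a sterol desaturase, and DHCR7, the reductase of a last step, had infant minus fetal values of -0.06 and -0.15. Their second probe sets gave -0.25 and -0.26 (limma adjusted p = 0.666 and 0.808). CYP51A1, lanosterol demethylase, had its lowest mean in infants in both of its shared probe sets, while the highest mean was fetal in the brighter and adult in the dimmer one. The brighter one read 10.52, 10.21, 10.52 and 9.79 in fetal, 9.58, 10.04, 9.15 and 9.65 in infant and 9.98, 10.01 and 10.16 in adult arrays. Infant minus fetal was -0.66 (SE 0.18, limma adjusted p = 0.497) and adult minus infant 0.45 (adjusted p = 0.770), and the dimmer set gave -0.26 and 0.38.

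**Figure D2:**
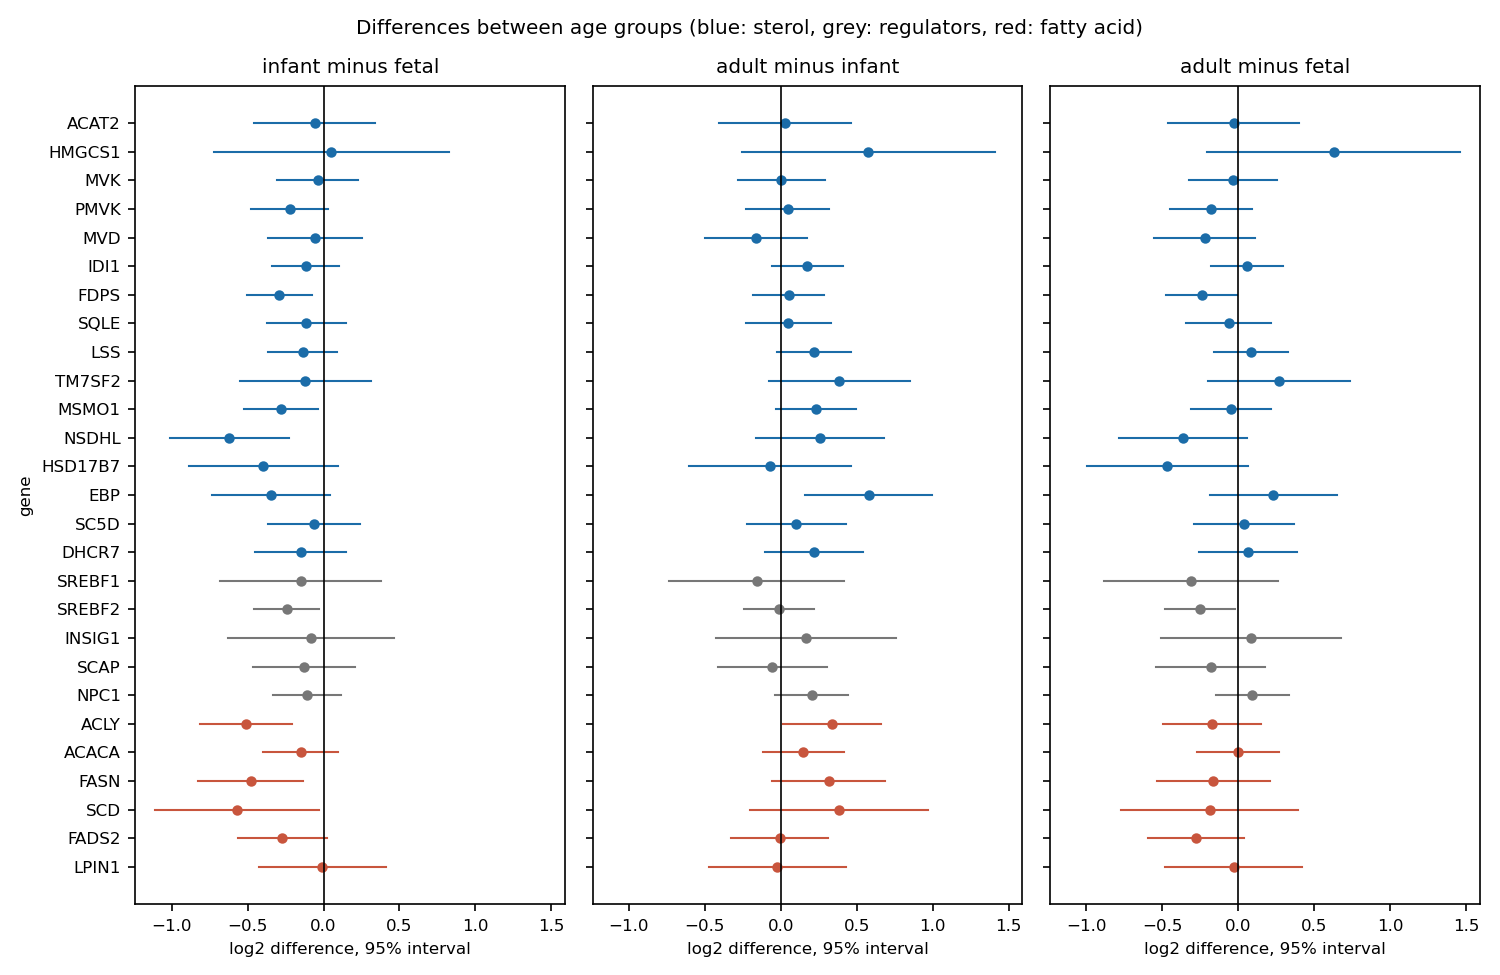
Points are log2 differences between age groups for the 27 members with a single-symbol probe set, and lines are 95% intervals from the limma fit. In infant minus fetal 26 of 27 points lie below 0, in adult minus infant 20 lie above 0, and in adult minus fetal 18 lie below 0.

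Among regulators, SREBF2, which encodes the activator of sterol genes, read 9.08, 9.19, 9.25 and 9.21 in fetal, 8.97, 9.03, 8.74 and 9.03 in infant and 8.83, 8.86 and 9.10 in adult arrays. All infant arrays lay below all fetal arrays, while adult array 3 reached the fetal range. The differences were -0.24 for infant minus fetal (SE 0.10, limma adjusted p = 0.681) and -0.25 for adult minus fetal (SE 0.11, adjusted p = 0.499). A second SREBF2 probe set gave -0.06 and 0.05. Of all probe sets 3.34% kept infant and fetal arrays from overlapping, against 4 of 53 member probe sets (IDI1, SREBF2, ACLY and SCD, 1 each). Between adult and infant arrays it was 3 of 53 (IDI1, EBP and ACLY), against 4.98% of all.

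SREBF1, whose products include the activator of fatty acid genes, read 9.37, 9.37, 9.33 and 10.11 in fetal, 9.20, 9.31, 9.51 and 9.56 in infant and 8.50, 9.26 and 9.94 in adult arrays. The adult arrays alone spanned more than the differences between group means. Adult minus fetal was -0.31 (SE 0.27, 95% interval -0.88 to 0.26, limma adjusted p = 0.796). Without the 4 arrays that stood apart it was 0.40.

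INSIG1, the sterol-sensing retention factor that is itself a target of the pathway, read 9.13, 8.72, 8.82 and 8.95 in fetal, 9.36, 9.22, 8.31 and 8.37 in infant and 9.29, 9.33 and 8.33 in adult arrays. Its group means, 8.90, 8.82 and 8.98, were closer than the SDs of the infant (0.55) and adult (0.57) groups. The division ran within the ages, with infant arrays 1 and 2 and adult arrays 1 and 2 highest and infant arrays 3 and 4 and adult array 3 lowest. The next brightest INSIG1 probe set read 7.95, 8.28, 7.88 and 7.63 in infant arrays 1 to 4 and 8.27, 7.47 and 8.17 in adult arrays 1 to 3. There infant arrays 1 and 2 also lay above infant arrays 3 and 4, by less for infant array 1, but adult array 2 was below adult array 3. The dimmest one read 6.83, 6.93, 6.78 and 6.75 in infant arrays and 6.84, 6.87 and 6.84 in adult arrays. SCAP, the escort protein, and NPC1, which moves cholesterol out of lysosomes, had adult minus fetal values of -0.18 and 0.09.

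**Figure D3:**
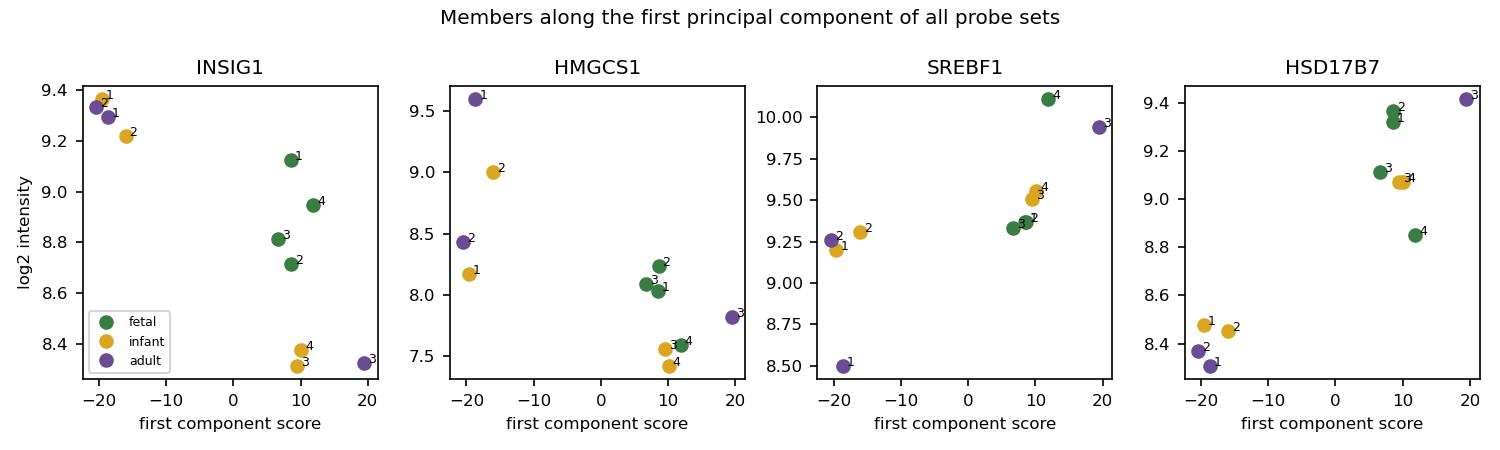
Log2 intensity of INSIG1, HMGCS1, SREBF1 and HSD17B7 against the score of each array on the first principal component of all probe sets, with numbers giving the array within its group. Adult arrays 1 and 2 and infant arrays 1 and 2 form the left cluster, where INSIG1 is at 9.22 to 9.36 and HSD17B7 at 8.31 to 8.48.

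The 4 arrays of that cluster did not overlap the other 7 in 3 of 27 members, against 3.74% of all genes. INSIG1 was higher in them (9.22 to 9.36, against 8.31 to 9.13 in the others). HSD17B7 was lower (8.31 to 8.48, against 8.85 to 9.42), and so was SREBF1 (8.50 to 9.31, against 9.33 to 10.11). The labels do not say what the 4 cultures share, and no test was made, since the division came from the data.

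In fatty acid synthesis, 6 genes had a probe set of their own. By the brightest probe set the fetal mean was the highest for all 6, as it was for 36.1% of all genes. In the other ACLY sets the adult mean was the highest (8.05 and 9.42, fetal 7.87 and 9.24). The adult mean also led in an SCD set (8.33, fetal 8.27) and the infant mean in the other FASN set (7.31, fetal 7.23). Like the sets of IDI1, this SCD set and this FASN set may also match near-identical sequences. In the other LPIN1 sets the fetal mean was the lowest (7.03 and 7.55). It stayed the highest in the other ACACA set (7.49) and the remaining SCD sets (8.37 and 8.07). By the brightest probe set the fetal lead was narrow for ACACA (adult minus fetal -0.002) and LPIN1 (infant minus fetal -0.008). Without the 4 arrays that stood apart, adult minus fetal was 0.18 for ACLY and 0.24 for FASN, and with all probe sets of ACLY averaged it was 0.066. ACLY, ATP citrate lyase, which makes cytosolic acetyl-CoA from citrate, read 10.00, 10.15, 10.06 and 10.27 in fetal, 9.34, 9.59, 9.61 and 9.90 in infant and 9.72, 9.82 and 10.30 in adult arrays. Every infant array lay below every fetal array. The infant minus fetal difference was -0.51 (SE 0.14, 95% interval -0.81 to -0.21, limma adjusted p = 0.497) and adult minus infant 0.34 (SE 0.15, adjusted p = 0.779). The other 2 ACLY probe sets gave infant minus fetal values of -0.24 and -0.04, and 1 of them kept all adult above all infant arrays (0.43).

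FASN, fatty acid synthase, read 8.51, 8.71, 8.70 and 8.94 in fetal, 7.98, 8.28, 8.13 and 8.55 in infant and 8.51, 8.20 and 8.95 in adult arrays. Infant arrays 1 to 3 lay below every fetal array, and infant array 4 reached the lowest fetal one. The infant minus fetal difference was -0.48 (SE 0.16, limma adjusted p = 0.615). Its dimmer probe set, with group means below the median of all, gave 0.08.

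SCD, the desaturase that makes monounsaturated fatty acids, read 11.18, 10.08, 10.19 and 10.00 in fetal, 9.97, 10.19, 9.13 and 9.88 in infant and 10.33, 10.17 and 10.02 in adult arrays. Fetal array 1 was far above and infant array 3 far below the rest. Infant minus fetal was -0.57 (SE 0.25, limma adjusted p = 0.707), and -0.30 without fetal array 1, -0.35 without infant array 3 and -0.86 without the 4 arrays that stood apart. A second probe set had the same difference with less spread, at 7.70, 7.98, 7.46 and 8.04 in infant arrays against 8.69, 8.39, 8.15 and 8.24 in fetal arrays (SE 0.14, adjusted p = 0.472 with limma). It also kept all adult below all fetal arrays (-0.33), the 1 member probe set that did so in that comparison, against 8.08% of all probe sets. The 2 remaining SCD probe sets gave infant minus fetal values of -0.11 and -0.04.

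FADS2, a desaturase of polyunsaturated fatty acids, read 8.75, 8.59, 8.96 and 8.56 in fetal, 8.37, 8.13, 8.79 and 8.49 in infant and 8.59, 8.32 and 8.41 in adult arrays, with overlap throughout. Adult minus fetal was -0.28 (SE 0.15, limma adjusted p = 0.631). ACACA, acetyl-CoA carboxylase, and LPIN1, a phosphatidate phosphatase of triglyceride synthesis, had adult minus fetal values of -0.002 and -0.03. The probe sets shared by FADS1, the partner desaturase, went the other way. The brightest read 9.55, 9.58, 9.64 and 9.70 in fetal, 9.44, 9.54, 9.15 and 9.62 in infant and 9.64, 10.04 and 10.20 in adult arrays. All adult arrays lay above all infant arrays (0.52, SE 0.14, limma adjusted p = 0.465), and adult minus fetal was 0.34 (adjusted p = 0.483) for it and 0.57 and 0.17 for the other 2.

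The branches were set side by side by the mean deviation of their genes from the mean over all arrays. In sterol synthesis the fetal arrays stood at 0.09, 0.16, 0.14 and -0.11, the infant arrays at -0.18, -0.004, -0.18 and -0.09 and the adult arrays at 0.11, -0.02 and 0.09. In fatty acid synthesis the fetal arrays stood at 0.26, 0.13, 0.14 and 0.11, the infant arrays at -0.28, -0.13, -0.28 and -0.001 and the adult arrays at 0.00, -0.15 and 0.21. By the brightest probe set of each gene, fetal and infant arrays overlapped in the sterol branch through fetal array 4 and did not overlap in the fatty acid branch. How often the means of other sets of genes keep these arrays apart was not computed. Other single-symbol probe sets of the fatty acid genes gave infant minus fetal values from -0.57 (SCD) to 0.12 (LPIN1). As medians of log2 differences, infant minus fetal was -0.13 for sterol, -0.13 for regulator and -0.37 for fatty acid genes, against -0.02 for all genes and -0.04 for genes above the median level. Adult minus infant was 0.14, -0.01 and 0.23 for those branches, against 0.02 for all genes. Adult minus fetal was -0.03, -0.18 and -0.17, against 0.00 for all genes, and with adult array 3 alone, without the 4 arrays that stood apart, the fatty acid and regulator medians were 0.08 and 0.18. Without them the adult minus infant medians of fatty acid and regulator genes were 0.53 and 0.23, and the infant minus fetal median of fatty acid genes was -0.22. Across the 11 arrays the mean deviations of the sterol and fatty acid branches correlated at 0.75 (Spearman 0.71), as a description over arrays of which 4 stood apart. That correlation was not computed with each group's mean subtracted, nor for other sets of genes.

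**Figure D4:**
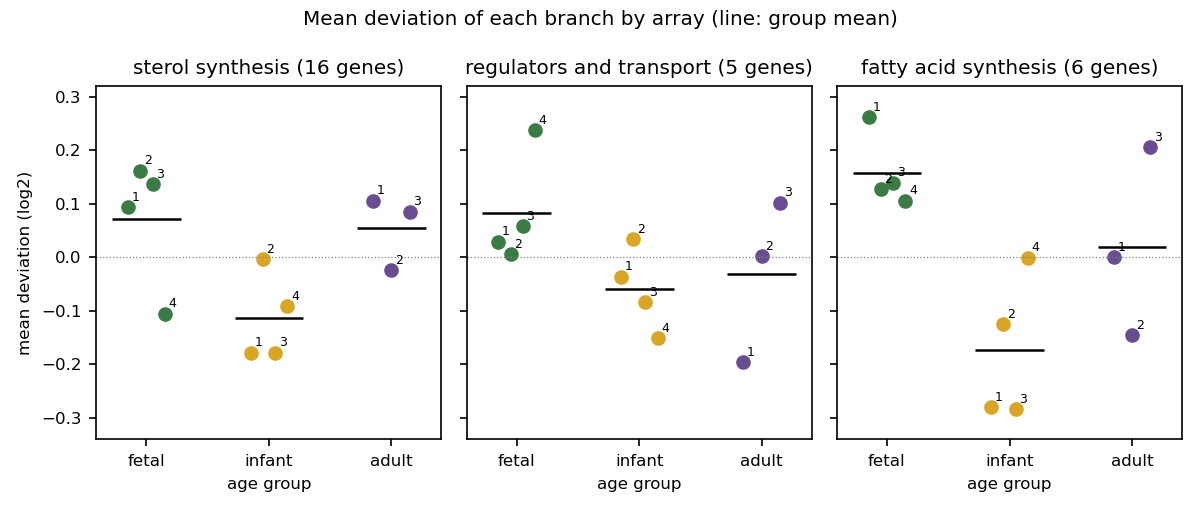
Mean log2 deviation of the genes of each branch from their means over all arrays, 1 point per array with its number, and a line at the group mean. Infant means are -0.11 for sterol and -0.17 for fatty acid synthesis, and the fetal means are 0.07 and 0.16.

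Probe sets of one gene did not always share a direction. Of 17 members with several single-symbol probe sets, 10 had all of them on 1 side of 0 for infant minus fetal, 10 for adult minus infant and 8 for adult minus fetal. Counted by probe set, 43 of 53, or 81.1%, were lower in infant than in fetal arrays, against 51.6% of all probe sets. By gene it was 26 of 27, against 54.6% of all genes and 61.5% of the 7187 genes above the median level.

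**Figure D5:**
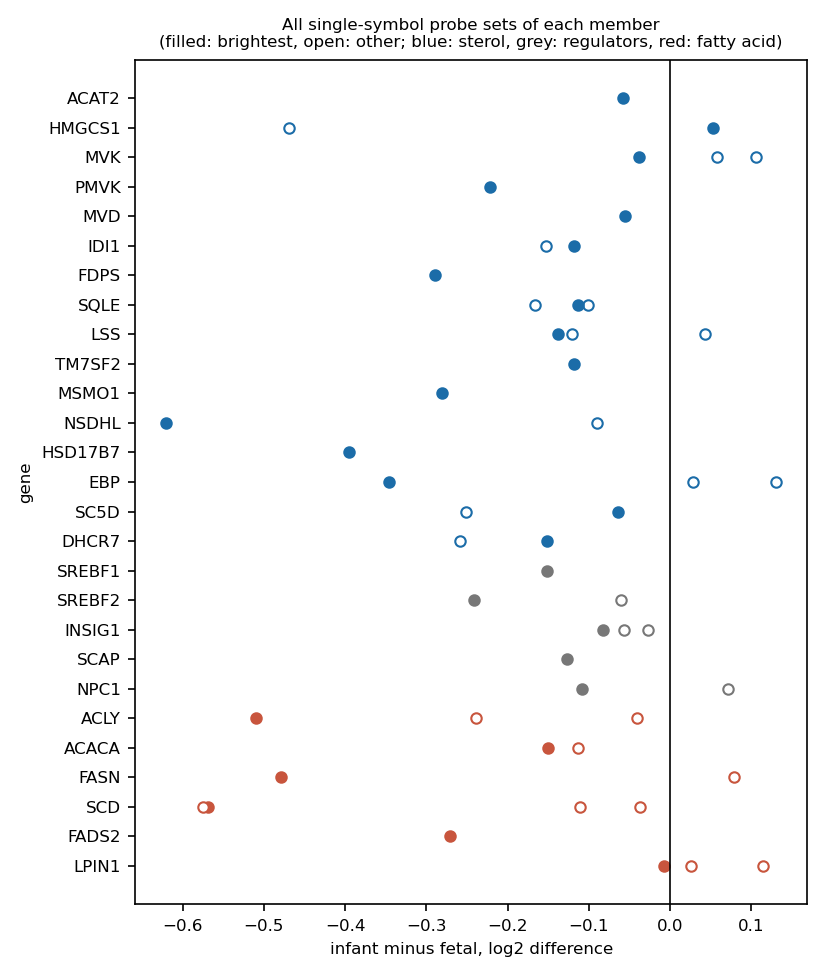
Infant minus fetal log2 difference of every single-symbol probe set, by gene, with the brightest filled and the others open. For HMGCS1, EBP, FASN, MVK, LSS, NPC1 and LPIN1 the probe sets lie on both sides of 0.

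Within the fetal group, newborn and gestation day 120 arrays, 2 each, were compared in a model with a mean for each stage. There 0 of 53 member probe sets and 0% of all were called, and at an unadjusted p under 0.05 it was 0 of 53, against 1.81% of all. SCD had the largest difference, newborn minus gestation day 120, at -0.54, followed by NSDHL at -0.49 and LPIN1 at -0.39 (adjusted p = 1 for each with limma). The first 2 came from 1 array each. For SCD fetal array 1 read 11.18, and fetal array 2 (10.08) lay between the newborn arrays (10.19 and 10.00). For NSDHL newborn array 3 (8.50) lay between the gestation day 120 arrays (8.65 and 8.49), and array 4 read 7.65. LPIN1 read 8.25 and 8.03 at gestation day 120 and 7.75 in both newborn arrays. Between adult and gestation day 120 arrays 0 of 53 members passed, against 0.122% of all probe sets.

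Other genes of the same pathways were taken from 2 further lists. Of 20 sterol-related genes 15 were measured, and 0 were called between adult and fetal, adult and infant or infant and fetal arrays. Their infant minus fetal median was 0.05, with 10 of 15 higher in infants, unlike the synthesis members in sign, and that difference was not tested. NPC2, which hands cholesterol to NPC1 in lysosomes, had the smallest p between adult and fetal arrays, with means of 11.86 in adult and 11.44 in fetal arrays (0.42, limma adjusted p = 0.248). OSBP, an oxysterol-binding lipid carrier, was at -0.29 for infant minus fetal (limma adjusted p = 0.621) and at 0.28 for adult minus infant. INSIG2, which holds SCAP back as INSIG1 does, was at -0.33 for adult minus infant (limma adjusted p = 0.744).

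Of 25 fatty acid-related genes 19 were measured, with 13 of 19 lower in infant than in fetal arrays (median -0.08) and 0 called between the titled groups. ELOVL6, the elongase that extends palmitate, read 8.50, 8.41, 8.09 and 7.42 in fetal, 7.60, 7.56, 7.41 and 7.51 in infant and 7.05, 7.17 and 7.31 in adult arrays. All adult arrays lay below all infant arrays, and fetal arrays 1 to 3 lay above every other array. The adult minus fetal difference was -0.94 (SE 0.20, limma adjusted p = 0.0831). Against the gestation day 120 arrays alone, the difference was -1.28 (SE 0.17), lower in adult arrays, and passed the test (limma adjusted p = 0.0177). Leaving out either gestation day 120 array, adult array 1 or adult array 2 ended the call, with adjusted p of 0.264, 0.112, 0.0591 and 0.0537 and differences of -1.24, -1.33, -1.22 and -1.28. AGPAT1, an acyltransferase of glycerolipid synthesis, was higher in adult than in infant arrays by 0.41 without passing (limma adjusted p = 0.486), and ELOVL5, an elongase of polyunsaturated fatty acids, by 0.37 (limma adjusted p = 0.610).

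Relations between a regulator and an enzyme were computed for 5 pairs over 11 arrays, with permutation p and Benjamini-Hochberg adjustment over the pairs, and beside them within the 7 arrays outside the cluster. INSIG1 and HMGCS1 correlated at r = 0.68 (permutation p = 0.0172, adjusted 0.0862) and rho = 0.71 (permutation p = 0.0178, adjusted 0.0888). Without infant array 3 and adult array 3 r was 0.64, and within the 7 arrays it was 0.50 (permutation p adjusted 0.287). INSIG1 and SCD gave r = 0.54 (adjusted 0.193), rho = 0.45 (adjusted 0.274), 0.30 without the same arrays and 0.77 within the 7 (adjusted 0.0577). SREBF1 and FASN gave r = 0.50 (adjusted 0.193), rho = 0.64 (adjusted 0.0957), 0.66 without adult array 1 and fetal array 4, and 0.59 within the 7. INSIG1 with SQLE gave r = 0.09 and rho = -0.10, with -0.62 without infant array 3 and adult array 3 and 0.27 within the 7. SREBF2 with HMGCS1 gave r = -0.28 and rho = -0.24, with -0.64 without infant array 3 and fetal array 3 and 0.53 within the 7. The sign of both pairs thus depended on which arrays were used. None of the 5 passed after adjustment, and the cluster of 4 was too small for a value of its own.

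Among 7161 ranked genes, those most like INSIG1 over the 11 arrays were IKZF1 (r = 0.93), URI1 (0.93) and TPMT (0.91), all chosen by that measure. Among members HMGCS1 (0.68) and ACAT2 (0.67) were the most like it, and HSD17B7 (-0.75) and TM7SF2 (-0.71) the most unlike. Pairs of sterol synthesis genes had a median r of 0.15, with 18 of 120 pairs over 0.5, and pairs of fatty acid genes a median of 0.26, with 3 of 15 over 0.5. Pairs of all genes above the median level had a median of 0.02, with 8.64% over 0.5. With each group's mean subtracted the sterol and fatty acid medians were 0.015 and -0.093. No such value was computed for all genes.

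Proliferation genes had their highest sums in fetal arrays 1 to 3. All 10 measured had lower means in infant than in fetal arrays (median -0.48, 0 called), 9 of 10 had lower means in adult than in fetal arrays (median -0.30, 0 called), and adult minus infant had a median of 0.07. Their summed intensity was 5390, 6474, 6153 and 2569 in fetal, 2749, 3172, 4329 and 2441 in infant and 3145, 3390 and 2736 in adult arrays. Fetal array 4, low in NSDHL and EBP, was also low in this sum, while infant array 3, high in it among infants, was among the lowest in both branches. The part of proliferation in the members' values was not tested. Of 12 adipocyte markers 11 were measured, 6 higher and 5 lower in infant than in fetal arrays, 0 called, with sums of 2046 to 2401 in infant and 1951 to 2123 in fetal arrays, and 2160 to 2200 in adult arrays. Stromal markers summed to 42973 to 62190 in fetal, 36532 to 52450 in infant and 49241 to 56959 in adult arrays, with overlap. Markers of macrophages and leukocytes summed to 1480 to 1802 in fetal, 1478 to 1874 in infant and 1630 to 2182 in adult arrays. Like most members, 7 of these 8 markers had lower means in infant than in fetal arrays (median -0.14), and 8 of 8 had higher means in adult than in infant arrays (median 0.16). Endothelial markers had higher means in infant than in fetal arrays in 6 of 6 (median 0.11). Of 7 measured plasma and B cell markers 5 were lower in infant than in fetal arrays and 3 higher in adult than in infant arrays (medians -0.06 and -0.002), and of 5 erythroid markers 3 and 4 (medians -0.05 and 0.12). Of all genes, 54.6% were lower in infant than in fetal arrays and 54.7% higher in adult than in infant arrays. The adipocyte, macrophage and leukocyte, plasma and B cell, erythroid and endothelial lists were dim. Their mean log2 levels per array lay between 7.28 and 7.91, where the median of all probe sets was 7.38. The part of these cell types in the members' values was not tested. No marker list held a called gene between the titled groups. In such cultures fewer cells of a type and less RNA per cell cannot be told apart.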

How the data were processed

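The authors deposited 1 intensity per probe set and array. The submitters' processing notes name RMA without a version, a method that subtracts background, brings arrays to one scale and pools the probes of a set, so that overall brightness is removed. The values were on a linear scale (lowest 75.3), and log2 was taken. The probes are annotated with human genes, so that readings also depend on how well they match monkey RNA. Groups came from the titles. The 3 group means were fitted together on all arrays with limma 3.58.1 (R 4.3.3), with Benjamini-Hochberg adjustment over 22215 probe sets and calls at an adjusted p under 0.05, two-sided. Adjusted p-values are limma's unless named otherwise. The number of arrays limits the precision. Members and lists were chosen with earlier results of these data known. Members with values in every array were those with the largest differences per comparison (6 for adult minus fetal, 4 for each of the others), with SREBF1, SREBF2 and INSIG1 added. CYP51A1 and FADS1 were shown by array after their values were seen, and other pathway genes were named by call or smallest p. Correlations used 100000 permutations, two-sided. The fit was run on simulated data with independent noise and known shifts. Those data lacked the division of the arrays on the first principal component, so the run does not bear on it. Alternatives were another offset, quantile normalization, a filter on level, array weights, an intensity trend, the replicate number as a block, all probe sets of a gene averaged, and arrays left out. Equally numbered adult and infant arrays deviated together (correlations 0.145, 0.131 and 0.204), so that the numbers passed the check for pairs there, although adult arrays 1 and 3 correlated more with infant arrays 2 and 4 (0.258 and 0.299), which lie on their side of the first principal component. Adult and fetal arrays did not pass (0.068, 0.043 and -0.096), nor did infant and fetal arrays (0.116, 0.008, 0.041 and 0.275).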

Additional observations from a re-analysis of the deposited data

Results flagged for a closer look

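In 6 of 54 groups of 4 arrays, 1 array lay far from the other 3, whose range was small against the gap. About 1 group in 20, or 2.7 of 54, does so by chance. Of these, 3 were fetal array 4, from a newborn. NSDHL read 7.65 there and 8.49 to 8.65 in the other fetal arrays, EBP 8.88 against 9.66 to 9.80, and SREBF1 10.11 against 9.33 to 9.37. SCD read 11.18 in fetal array 1 and 10.00 to 10.19 in the other fetal arrays. Infant array 1 was low in SC5D, at 6.89 against 7.29 to 7.33 in the other infant arrays, and in ACACA, at 7.74 against 8.11 to 8.18.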

How the results depend on the processing

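Member probe sets called stayed at 0 in the 3 comparisons between titled groups under every alternative, except 1 (NSDHL, -0.84) for infant minus fetal without fetal array 4 (range 0 to 1). The replicate block left the members at 0 and gave 127, 6 and 10 probe sets over the whole table for adult minus fetal, adult minus infant and infant minus fetal, against 29, 4 and 0. Other whole-table counts for adult minus fetal were 120 with array weights, 12 with log2 of the value plus 50, 12 genes with all probe sets of a gene averaged, 65 without adult arrays 1 and 2 and infant arrays 1 and 2 (which leaves 1 adult array, assumed to vary like the other groups), and 4 to 153 leaving out 1 array, with 4 when adult array 1 or 2 or fetal array 2 was left out and 153 without adult array 3. For adult minus infant they were 10 with array weights, 8 with an intensity trend, 10 without the 4 arrays (again 1 adult array) and 0 to 55 leaving out 1. For infant minus fetal they were 1 with array weights, 1 above the median level and 0 to 21 leaving out 1. Medians moved beyond the spread of arrays without the 4 arrays: fatty acid and regulator members to 0.076 and 0.18 for adult minus fetal, to 0.53 and 0.23 for adult minus infant, and fatty acid members to -0.22 for infant minus fetal (-0.23 with all probe sets of a gene averaged). The regulator median of adult minus fetal ranged from -0.34 to -0.071 leaving out 1 array.

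Signs turned in the following. Without the 4 arrays, adult minus fetal was 0.18 for ACLY, 0.24 for FASN, -0.17 for HMGCS1, 0.25 for HSD17B7, -0.57 for INSIG1 and 0.40 for SREBF1, adult minus infant was 0.34 for HSD17B7, -0.018 for INSIG1, 0.41 for SREBF1 and 0.21 for SREBF2, and infant minus fetal was -0.50 for HMGCS1 and 0.12 for TM7SF2. Averaging probe sets gave 0.066 for ACLY (adult minus fetal), 0.051 for SREBF2 (adult minus infant) and -0.21 for HMGCS1 (infant minus fetal). Array weights gave 0.0037 for FADS2 (adult minus infant) and -0.030 for HMGCS1 (infant minus fetal), and the block 0.0059 for FADS2, 0.031 for HSD17B7 and 0.018 for SREBF2 (adult minus infant). With gestation day 120 alone as fetal, infant minus fetal was -0.10 for HMGCS1 and 0.025 for SREBF1. Leaving out 1 array, adult minus fetal ranged from -0.36 to 0.016 for FASN, -0.091 to 0.41 for INSIG1, -0.31 to 0.087 for SCD, -0.66 to 0.056 for SREBF1 and -0.048 to 0.46 for TM7SF2. Adult minus infant ranged from -0.11 to 0.11 for FADS2, -0.43 to 0.13 for HSD17B7, -0.0081 to 0.50 for INSIG1, -0.51 to 0.21 for SREBF1 and -0.097 to 0.038 for SREBF2. Infant minus fetal ranged from -0.27 to 0.26 for HMGCS1, -0.26 to 0.085 for INSIG1, -0.22 to 0.037 for SREBF1 and -0.23 to 0.028 for TM7SF2. The correlation of SREBF2 with HMGCS1 was -0.28 over 11 arrays and 0.53 within 7. The causes were not tested. NSDHL, EBP, ACLY, FASN, SCD and SREBF2 kept the sign of infant minus fetal in every alternative run. Removing the 4 arrays, the 7-array correlations and the contrast of infants with both other groups were chosen after seeing the data. ELOVL6 between adult and gestation day 120 arrays ranged from -1.35 to -1.22 leaving out 1 array, and was -1.15 without the 4 arrays, where the adult group was adult array 3 alone and it was not called (limma adjusted p = 0.127).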
